A study of Capra hircus with 2 samples.

Results

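MiRNAs known from red blood cells and blood vessels were followed in the lactating mammary gland of the dairy goat (Capra hircus). The miRNAs were miR-451, miR-144, miR-486 and miR-126, represented by 6 mature arms, of which 4 (miR-451, miR-144-3p, miR-144-5p and miR-486-5p) belong to the red cell and 2 (miR-126-3p and miR-126-5p) to the endothelium. An arm is the mature RNA from one side of the miRNA hairpin. Every distinct sequence (tag) that held nt 2 to 17 of an arm was counted to it, which took in 1249 of the 659118 distinct tags. The samples were mammary gland taken by surgery from Laoshan dairy goats, 4 years old and in lactation number 3. Peak lactation was day 90 after birth and late lactation day 210. The RNA of 5 goats was pooled for each stage, with no treatment and no genetic change, and whether the same goats were used at both stages is not given in the sources used here. Each stage is therefore 1 library, so no test of the stages was possible, no spread between goats is known, and all intervals are 95% intervals that cover counting error only.

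MiR-451 and miR-144 are made from one primary transcript under the erythroid factor GATA1 and are among the most abundant miRNAs of red cells, and miR-486 is abundant in red cells and also in muscle. MiR-451 is unusual in that Dicer does not cut it: Argonaute 2 slices its short hairpin, and the 3′ end is then trimmed. MiR-126 lies in an intron of EGFL7, is a classic miRNA of endothelial cells, and yields 2 arms that are both found in Argonaute. In the goat gene table of the assembly ARS1.2, MIR451 and MIR144 are neighbours and MIR126 lies inside EGFL7, while the names of this table were used for gene order alone.

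Leading tags are shown because their 5′ ends set the seed (nt 2 to 8, in capitals), by which a miRNA recognises its targets. In miR-451, miR-144-3p and miR-126-5p the 3′ end of the leading tag also differed between the stages. The 20-nt tag of miR-144-3p, which led in peak, is not printed. The sequences are those of the deposited reads, with T for U, and the number in each name is the length in nt.
miR-451, 21 nt: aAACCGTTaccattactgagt
miR-451, 22 nt: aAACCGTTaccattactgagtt
miR-451, 23 nt: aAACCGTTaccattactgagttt
miR-144-3p, 22 nt: tACAGTATagatgatgtactct
miR-144-5p, 22 nt: gGATATCAtcatatactgtaag
miR-144-5p, 24 nt, begins 2 nt earlier: tGGGATATcatcatatactgtaag
miR-126-3p, 22 nt: tCGTACCGtgagtaataatgcg
miR-126-5p, 20 nt: cATTATTActtttggtacgc
miR-126-5p, 21 nt: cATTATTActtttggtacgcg

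The tags carry no names in the deposited data. Of the 6 arms, 5 were found as the group of tags whose reads in both libraries lay nearest to those the study lists for the name, within 5%, and each of these groups begins with the conserved mature sequence. For miR-451, 1 other group lay within the same limit. The study splits miR-144-5p by its start, so that arm was found by pairing instead. Among 5331 tags, one of miR-144-5p formed the strongest duplex with the leading tag of miR-144-3p, at -23.0 kcal/mol. The leading tag of miR-144-5p gave -20.2 kcal/mol, against -17.6 kcal/mol for the strongest of the other tags. The arm was chosen by this search, so its first place is no separate support, and its counts were not compared with listed ones. The same search paired miR-126-3p with miR-126-5p at -22.3 kcal/mol, against -17.5 kcal/mol for the strongest of the other tags.

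The libraries held 19044002 clean reads in peak and 7385833 in late lactation, so 1 read was worth 0.0525 and 0.135 reads per 1000000 clean reads (RPM), and a count of 0 allows up to 0.158 and 0.406 RPM. Clean reads were 98.5% of the high-quality reads in peak and 73.9% in late lactation, and reads removed for 5′ adaptor contamination were 0.0494% and 14.0%. The part of this gap in the results was not tested. The unit of the background is the tag group, which is all tags that share nt 2 to 17 of one starting tag and are in no earlier group. The groups hold any small RNA, not miRNAs alone. Of 6802 groups with at least 1 RPM in one library, 38.7% were at least 2-fold higher in late lactation and 25.2% at least 2-fold lower.

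In late lactation 3 of the 6 arms were at least 2-fold higher (background 38.7%), 2 were at least 2-fold lower (background 25.2%), and 1 lay between. The higher arms were miR-144-3p, miR-126-5p and miR-451, and the lower arms were miR-144-5p and miR-126-3p. Both the red cell and the endothelial arms were thus split in direction, and in the 2 hairpins read on both sides the arms differed in sign. With 6 arms, both shares are near this background. The background itself depended on the level: with a minimum of 10 RPM it was 28.4% higher and 30.3% lower.

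**Figure D1:**
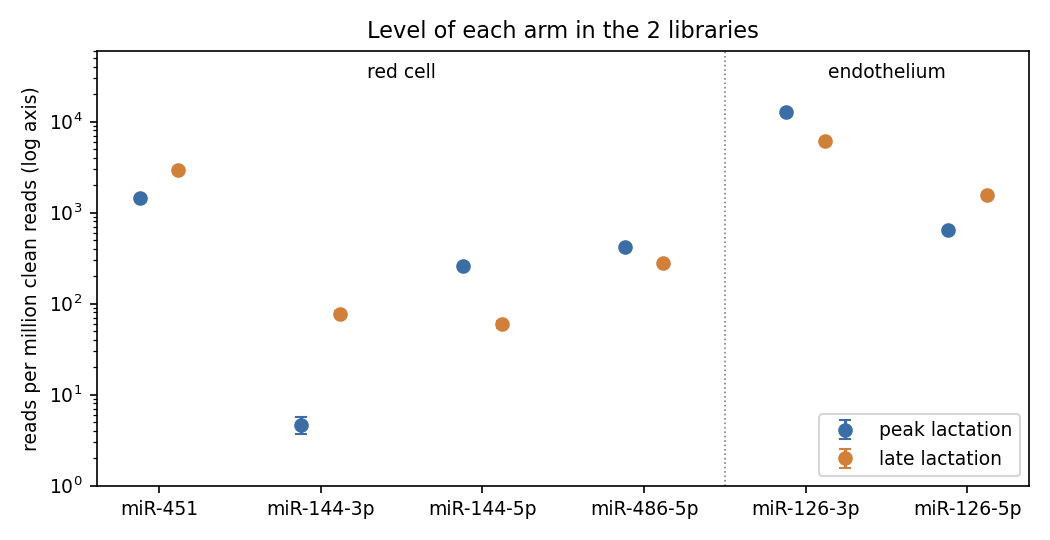
Level of each arm in RPM (log axis) in the peak library and the late library, with red cell arms left of the dotted line and endothelial arms right of it. Points are single libraries of pooled RNA and bars are 95% Poisson intervals, most of them smaller than the point; miR-144-3p was 4.62 RPM in peak and 77.3 RPM in late lactation, while miR-126-3p was highest in both.

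MiR-451, the most abundant red cell arm, was read 27820 times (1461 RPM) in peak and 21644 times (2930 RPM, 95% interval 2892 to 2970) in late lactation. The level was 2.01-fold higher, with a log2 ratio of 1.004 and an interval of 0.98 to 1.03, which is at the 2-fold limit itself. Its rank among the tag groups was 61 in peak and 35 in late lactation. Of the tag groups with at least 100 RPM in one library, 74.1% had a lower log2 ratio than miR-451. Among the 6802 groups with at least 1 RPM this share was 61.3%.

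MiR-144-3p, which shares its primary transcript with miR-451, was read 88 times in peak and 571 times in late lactation, that is 4.62 RPM (3.71 to 5.69) and 77.3 RPM (71.1 to 83.9). Its log2 ratio was 4.06 (3.74 to 4.41), the largest of the 6 arms, and 86.9% of the 6802 tag groups had a lower one. The arm from the opposite side of the hairpin, miR-144-5p, was read 4985 times (262 RPM) in peak and 438 times (59.3 RPM, 53.9 to 65.1) in late lactation. Its log2 ratio was -2.14 (-2.286 to -2.001). Although one hairpin gives both arms, 1 was 16.7-fold higher and 1 was 4.41-fold lower in late lactation.

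MiR-486-5p was read 8040 times (422 RPM, 413 to 432) in peak and 2045 times (277 RPM, 265 to 289) in late lactation. It was lower in late lactation by less than 2-fold, with a log2 ratio of -0.61 (-0.68 to -0.54). The median log2 ratio of the 440 groups with at least 100 RPM in one library was -0.38, and 45.2% of these groups had a lower ratio than miR-486-5p.

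MiR-126-3p, the endothelial arm, was the most abundant of the 6, with 241885 reads (12701 RPM) in peak and 45248 reads (6126 RPM, 6070 to 6183) in late lactation. It held rank 13 of the tag groups in peak and rank 17 in late lactation. The log2 ratio was -1.05 (-1.07 to -1.04), a 2.07-fold lower level. MiR-126-5p, the opposite arm, was read 12200 times (641 RPM) in peak and 11521 times (1560 RPM, 1532 to 1589) in late lactation, with a log2 ratio of 1.28 (1.25 to 1.32).

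**Figure D2:**
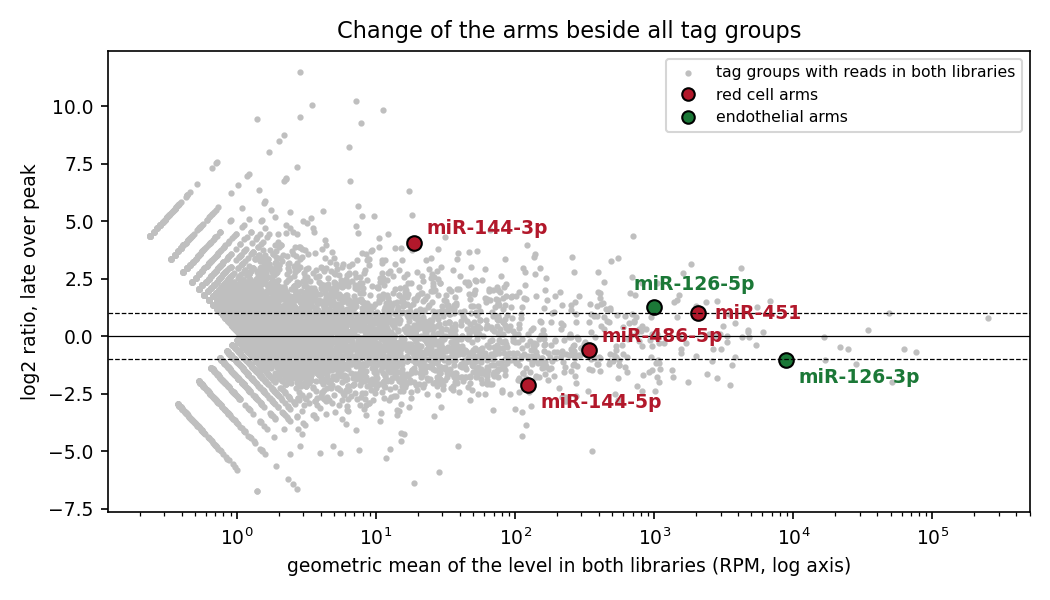
Log2 ratio of late over peak lactation (vertical) against the geometric mean level in both libraries in RPM (horizontal, log axis). Grey points are tag groups with reads in both libraries and at least 1 RPM in one, the dashed lines mark 2-fold, red points are red cell arms and green points endothelial arms. MiR-144-3p at 4.06 is the highest of the 6 arms, and the arms of one hairpin lie on opposite sides of 0.

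Added over arms, the red cell reads were 2149 RPM in peak and 3344 RPM in late lactation, with a log2 ratio of 0.64 (0.61 to 0.66). The endothelial reads were 13342 RPM and 7686 RPM, a log2 ratio of -0.80 (-0.81 to -0.78). The sums hid the split between arms, since the red cell sum followed miR-451 and the endothelial sum followed miR-126-3p. MiR-451 made up 68.0% of red cell reads in peak and 87.6% in late lactation. MiR-486-5p made up 19.6% and 8.28%, miR-144-5p 12.2% and 1.77%, and miR-144-3p 0.215% and 2.31%. In such bulk tissue, fewer cells of a type and less RNA per cell cannot be told apart, and the blood left in a gland taken by surgery is not given in the sources used here.

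A ratio of 2 arms within one library does not depend on the number of clean reads. Because ligation differs between sequences, such a ratio is one of reads and not of molecules, and the change of each ratio was compared. The 3′ ends of some arms also differed between the libraries, and whether ligation cancels in these changes was not tested. The red cell sum was 0.161 of the endothelial sum in peak and 0.435 in late lactation, a change of 1.43 on the log2 scale (1.41 to 1.46). MiR-451 alone was 0.115 of miR-126-3p in peak and 0.478 in late lactation, a change of 2.06 (2.03 to 2.09), or 4.16-fold. MiR-486-5p, by contrast, was 0.0332 and 0.0452 of miR-126-3p, a change of 0.44 (0.37 to 0.52). Relative to miR-126-3p, the shift was thus larger with miR-451 than with miR-486-5p when all tags were counted. Its direction depended on the arm of miR-126. MiR-126-5p had a log2 ratio of 1.28, above 1.004 for miR-451 and -0.61 for miR-486-5p, so relative to miR-126-5p both were lower in late lactation. The direction also depended on the tags of miR-451. On the leading tag of each arm alone (that with most reads over both libraries), miR-451 relative to miR-126-3p changed by -0.43. On tags of at least 22 nt the change was 3.91.

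Within the red cell arms, miR-451 was 3.46 times miR-486-5p in peak and 10.6 times in late lactation, a log2 change of 1.61 (1.54 to 1.69) that turned to -1.06 on the leading tags alone. Against miR-144-5p, its neighbour in the genome, miR-451 stood at 5.58 times in peak and 49.4 times in late lactation. Against miR-144-3p it went the opposite way, from 316 times to 37.9 times. The 4 red cell arms therefore did not keep one proportion to each other between the libraries.

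The arms of miR-144 showed the largest shift. There were 56.6 reads of miR-144-5p for each read of miR-144-3p in peak and 0.767 in late lactation. The arm with more reads was thus 5p in peak and 3p in late lactation. The ratio of 3p to 5p changed by 6.21 on the log2 scale (5.85 to 6.57), or 73.8-fold. For miR-126 the 3p arm had more reads in both libraries, with 19.8 reads for each read of the 5p arm in peak and 3.93 in late lactation, a log2 change of -2.34 (-2.38 to -2.30). In both hairpins the arm with fewer reads in peak was higher in late lactation.

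The shape of miR-451 differed more than its level. At peak lactation its commonest length was 21 nt, with 68.1% of reads, and 23 nt held 9.53%. At late lactation 23 nt held 50.3% and 21 nt held 11.1%. The 21-nt tag shown above was read 18879 times (991 RPM) in peak and 2345 times (318 RPM) in late lactation, and the 23-nt tag 2636 times (138 RPM) and 10677 times (1446 RPM).

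Split by length, the tags of miR-451 of at most 21 nt were 1158 RPM in peak and 534 RPM in late lactation, with a log2 ratio of -1.12 (-1.17 to -1.07). Those of at least 22 nt were 302 RPM and 2397 RPM, a log2 ratio of 2.99 (2.94 to 3.03). The direction of the miR-451 change thus depended on the length that was counted. The mean length was 21.4 nt in peak and 22.8 nt in late lactation. This change of 1.38 nt was larger than that of 99.1% of the 450 tag groups with at least 400 reads in both libraries, whose median change was -0.31 nt, so the lengthening was not shared by most small RNAs of the late library. The 3 tags differ only at the 3′ end and have the same seed.

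**Figure D3:**
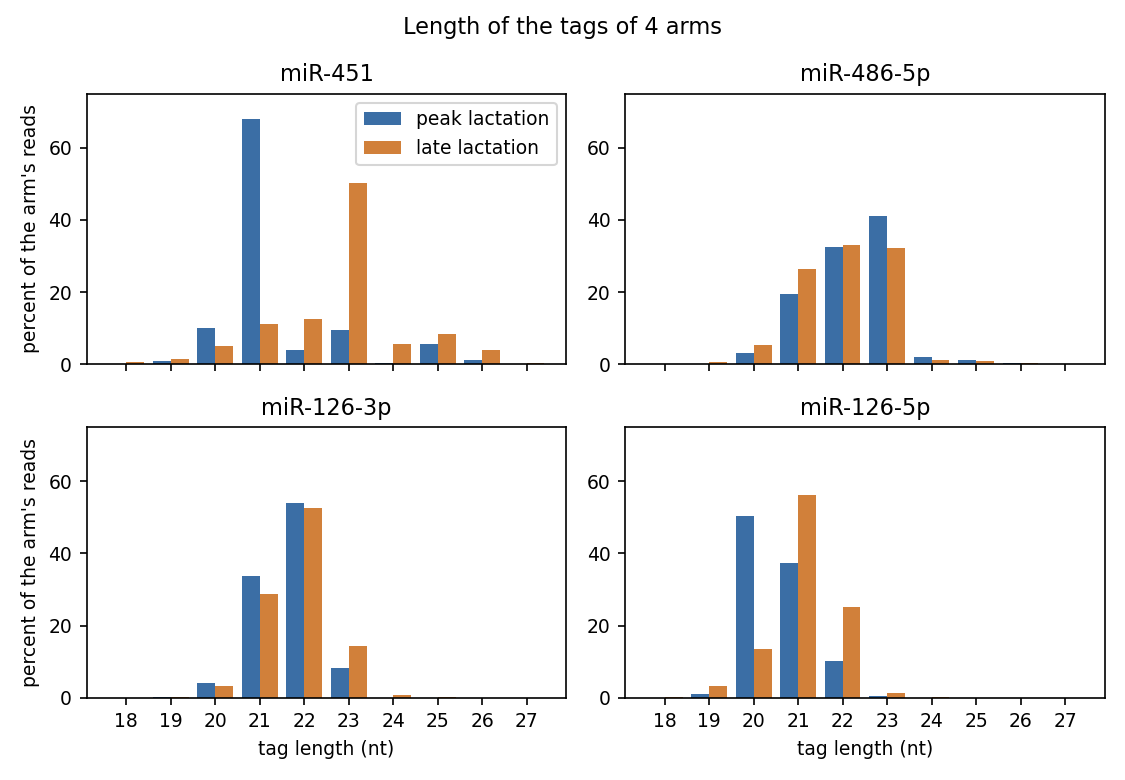
Percent of the reads of an arm (vertical) at each tag length in nt (horizontal) in peak and late lactation for miR-451, miR-486-5p, miR-126-3p and miR-126-5p. The commonest length moved from 21 to 23 nt in miR-451, from 20 to 21 nt in miR-126-5p and from 23 to 22 nt in miR-486-5p, and stayed at 22 nt in miR-126-3p.

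MiR-126-5p was also longer in late lactation. Its commonest length was 20 nt in peak, with 50.3% of reads, and 21 nt in late lactation, with 56.2%. The 20-nt tag was 318 RPM in peak and 191 RPM in late lactation, while the 21-nt tag was 237 RPM and 853 RPM. Its mean length changed by 0.46 nt, above 95.1% of the 450 groups.

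The remaining arms changed less in mean length. The commonest length of miR-144-3p was 20 nt in peak (44.3% of 88 reads) and 22 nt in late lactation (42.2%), with a mean length higher by 0.20 nt. MiR-126-3p had 22 nt as its commonest length in both libraries (53.9% and 52.5%), and miR-144-5p also had 22 nt in both (53.4% and 49.8%). The mean length of miR-126-3p was higher by 0.16 nt, above 87.6% of the 450 groups. That of miR-144-5p changed by -0.045 nt, above 71.1% of these groups. MiR-486-5p went from 23 nt (41.0%) to 22 nt (33.0%), with a mean length lower by 0.28 nt, near the median of the groups. The most abundant tag differed between the libraries in 43.3% of the 450 groups. Of the 5 arms with that depth it differed in 2, miR-451 and miR-126-5p, a share near that background, and it also differed in miR-144-3p, which had 88 reads in peak.

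Most arms had one 5′ end and so one seed. Reads that began at the 5′ end of the leading tag were 99.8% of miR-451 in peak and 96.8% in late lactation, and 99.9% and 99.7% of miR-486-5p. MiR-144-5p had 2 ends: 64.9% of its reads in peak and 63.0% in late lactation began at the leading start, with the seed GATATCA, and 28.8% and 32.2% began 2 nt earlier, with the seed GGGATAT. Both forms were lower in late lactation, with log2 ratios of -2.18 (-2.37 to -2.01) and -1.98 (-2.24 to -1.73), so the lower level of the arm did not come from one of its starts.

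MiR-126-3p reads that began 1 nt later than the leading tag were 7.20% of the arm in peak and 15.0% in late lactation. These were 914 RPM and 921 RPM, a log2 ratio of 0.01 (-0.03 to 0.05), where the reads at the leading start had -1.17 (-1.19 to -1.16). Reads with 1 extra nt at the 5′ end were 0.0252% of miR-451 in peak and 1.61% in late lactation, and 0.0082% and 1.10% of miR-126-5p. In miR-126-3p this share was lower in late lactation, at 4.83% and 3.73%. MiR-486-5p had few such reads, 2 in peak (0.0249%, 0.0030% to 0.0898%) and 7 in late lactation (0.342%, 0.138% to 0.704%). MiR-144-5p had 2 such reads in each library, too few to compare, and in miR-144-3p the intervals of the shares overlapped. The share over all tag groups was not computed. The late library also had the larger share of 5′ adaptor reads, and the part of these in the extra nt was not tested.

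The arms were set beside miRNAs of other cells, from lists chosen with earlier results of these data known. Only names whose tags could be recognised were used, and log2 ratios of late over peak stand in parentheses after the levels. For miR-25, miR-185-5p, miR-130a, miR-24, miR-142-3p, miR-150, miR-200b, miR-200c and miR-143, at least 1 other group also lay within 5% of the listed counts. The choice among these groups rests on recognition of the sequence. Of other miRNAs abundant in red cells, 4 of 6 were used: miR-15a was 110 RPM in peak and 411 RPM in late lactation (log2 ratio 1.90), and miR-25, miR-92a-3p and miR-185-5p had log2 ratios of 0.96, 0.32 and 0.20. One of 4 was at least 2-fold higher (background 38.7%) and 0 of 4 lower (background 25.2%), and their sum was 1712 and 2724 RPM. These 4 are not limited to red cells.

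Of miRNAs studied in endothelium beside miR-126, 3 of 8 were used, and 1 of 3 was at least 2-fold higher (background 38.7%). MiR-130a was 35.7 and 155 RPM (2.12), miR-221 was 85.9 and 146 RPM (0.76), and miR-24 was 6166 and 4776 RPM (-0.37). None of the 3 was at least 2-fold lower (background 25.2%), as miR-126-3p was. Their sum was 6288 and 5076 RPM.

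Leukocytes travel with red cells in blood and also enter the tissue, and 3 of the 4 leukocyte miRNAs used, of 5 listed, were at least 2-fold higher in late lactation (background 38.7%). MiR-223 of neutrophils was 13.1 RPM in peak and 167 RPM in late lactation (3.67), miR-150 of lymphocytes 21.3 and 103 RPM (2.28), and miR-142-3p 213 and 569 RPM (1.42). MiR-155 was 951 and 706 RPM (-0.43). The summed level of the 4 was 1198 and 1545 RPM. The log2 ratio of this sum was 0.37, and the part of leukocytes in the levels of the red cell arms was not tested.

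Muscle can also give miR-486, so its miRNAs were read beside that arm. Of 6 listed, 2 were used, and 1 of the 2 was at least 2-fold higher (background 38.7%). MiR-1 was 2671 RPM in peak and 1468 RPM in late lactation (-0.86), above miR-486-5p in both libraries and lower in late lactation like it, and miR-499 was 4.46 and 25.6 RPM (2.52). The 2 names went opposite ways, and the part of muscle in the level of miR-486-5p was not tested.

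Epithelial miRNAs, which mark the milk-secreting cells among others, had 4 of 6 names used. Of these, 0 were at least 2-fold higher (background 38.7%) and 1 at least 2-fold lower (background 25.2%). MiR-200c was 24151 and 11691 RPM (-1.05), miR-200b 3325 and 3299 RPM (-0.01), miR-200a 1300 and 1074 RPM (-0.28), and miR-141 2452 and 4807 RPM (0.97). Their sum was 31228 and 20870 RPM, above the endothelial sum in both libraries. In stroma and smooth muscle, where 2 of 4 names were used, miR-143 was 180709 and 324085 RPM (0.84) and miR-145 158 and 1528 RPM (3.28). All levels here are shares of one total, so a larger share of one miRNA leaves a smaller share for the rest. Totals without the 10 most abundant tags of each library moved every log2 ratio by 0.085. These tags were left out together, so 0.085 is not the shift from leaving out miR-143 alone, which was not computed. The part of miR-143 in the levels of the arms was not tested.

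**Figure D4:**
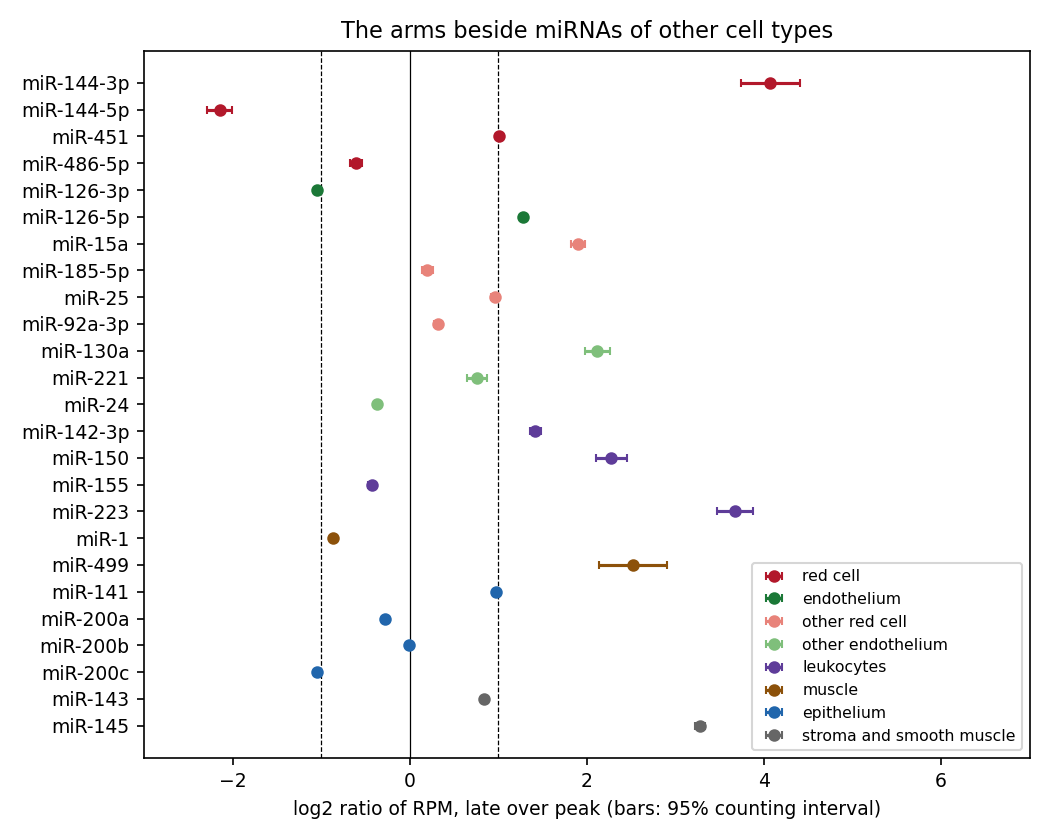
Log2 ratio of RPM, late over peak lactation (horizontal), for the 6 arms and for 19 miRNAs of other lists, coloured by list, with 95% counting intervals as bars and dashed lines at 2-fold. The red cell arms spread from -2.14 to 4.06, and 3 of the 4 leukocyte miRNAs lie at 1.42 or above.

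A few reads held an arm in a long tag. Tags of at least 36 nt, longer than the fraction of 18 to 30 nt cut from the gel, numbered 84 over the 6 arms, with 94 reads in peak and 20 in late lactation. A partner was looked for only among the arms and listed miRNAs named here, and most of the long tags were not matched to one. The most frequent pair was miR-126-5p with miR-200c, in 6 tags with 25 reads in peak and 0 in late lactation. MiR-451 was joined to miR-200a in 6 tags with 12 reads in peak and 0 in late lactation. Reads of at least 36 nt were under 1% of each arm, save for miR-144-3p, where 1 of the 88 reads in peak was that long.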

How the data were processed

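The authors extracted total RNA from mammary gland, pooled it per stage, cut the 18 to 30 nt fraction from a gel, ligated adaptors, sequenced on an Illumina 1G instrument, removed low-quality, adaptor, poly(A) and short reads, and merged equal sequences into tags. Per tag the authors deposited raw counts, and per library the read counts at each filter. Software of this trimming and merging: not given in the sources used here.

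Reads were summed over all tags that hold nt 2 to 17 of an arm and divided by the clean reads of the library (RPM). With 1 library per stage no test was run, and an arm was called at 2-fold. Intervals are exact: Poisson for counts, Clopper-Pearson for shares and ratios, conditional (Fisher) for ratios of ratios. Tag groups were started from tags of 18 to 25 nt in order of abundance. Each group took the tags of any length that held nt 2 to 17 of its starting tag and were in no earlier group. Members, lists and rules were chosen with earlier results of these data known. The tag groups, the 400-read minimum for lengths and the recognition of names were chosen after the tags were seen. The nearest counts gave a tag of another RNA for many names, which were left out. The text names the 6 arms, their leading tags and every used list member. The nearest miRNAs in pattern, miR-486-3p and a second arm of miR-451 were not analysed here, since no table of mature sequences was used, and no sequence of miR-486 is printed. Ratios were tested on simulated data. Alternatives used TMM factors from edgeR 4.0.16 and median ratios from DESeq2 1.42.0. Tools were Python 3.11.15, numpy 2.4.6, scipy 1.17.1, matplotlib 3.10.9, RNAduplex 2.7.2 and R 4.3.3.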

Additional observations from a re-analysis of the deposited data

How the results depend on the processing

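The 6 log2 ratios were recomputed under 10 alternatives, 1 of them (tags of at least 22 nt) added after the data were seen. Of these 60 values, 59 kept the direction of the value reported. The exception was miR-451, whose ratio was -1.64 on the leading tag alone, the 21-nt form, because its common length differed between the libraries. The leading tag was that with most reads over both libraries, so the deeper peak library weighed more in the choice. The 23-nt tag of miR-451, the most abundant in late lactation, had a log2 ratio of 3.38. On the leading tags miR-451 relative to miR-126-3p changed by -0.43 and relative to miR-486-5p by -1.06, against 2.06 and 1.61 over all tags. On these tags miR-144-3p relative to miR-144-5p changed by 6.63 and miR-126-3p relative to miR-126-5p by -3.06. On tags of at least 22 nt these 4 changes were 3.91, 3.78, 7.05 and -3.47, and on tags of 18 to 25 nt the first was 2.01. The number of arms at least 2-fold higher was 2 instead of 3 under 5 alternatives, in 4 of which miR-451 fell just under 2-fold and in 1 of which (the leading tag) it reversed. The number at least 2-fold lower was 1 instead of 2 on tags of at least 22 nt and on totals without the 10 most abundant tags, and 3 on the leading tag. The 4 scalings moved every ratio by at most 0.09 on the log2 scale. No minimum on RPM gave 53.4% of tag groups higher and 21.7% lower, and a minimum of 10 RPM gave 28.4% and 30.3%. The scaling by reads of reference miRNAs, the background over reference miRNAs and the count over separate mature names were not run. No paired analysis was possible because each stage is 1 library.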
